A study of Macaca mulatta with 10 samples.

Results

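The genes described here encode the proteins of the mitochondrial ribosome (mitoribosome) that carry an MRPL or MRPS symbol. They were taken as every locus of the deposited count table that is named by 1 symbol starting with MRPL or MRPS and a number. A symbol with several loci is represented by the most highly counted of them. The rule found 68 genes, 43 with an MRPL symbol and 25 with an MRPS symbol, among 26813 loci, of which 16162 stood for a symbol. RNA was measured in testis of 10 juvenile wild type male rhesus macaques (Macaca mulatta), which had received pulses of the gonadotropins FSH and LH or of vehicle by infusion. The 96 h gonadotropin group held TP15, TP16, TP17 and TP18, all 14 months old. The 48 h gonadotropin group held TP08, TP10 and TP12, aged 22, 14 and 15 months. The vehicle group held TP07, TP09 and TP11, aged 24, 14 and 15 months, and the length of its infusion is not in the labels. Values are listed in that order of animals throughout. The comparisons ask how gene expression in the testis differs after each length of gonadotropin drive.

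The mitoribosome sits in the mitochondrial matrix and translates the few proteins that mitochondrial DNA encodes, all of them subunits of the respiratory chain and of ATP synthase. Its small subunit reads the mRNA and its large subunit forms the peptide bond. Its RNA parts come from mitochondrial DNA, but all of its proteins are encoded in the nucleus, made by cytosolic ribosomes and imported. In the testis, mitochondria also house the first step of steroid synthesis in Leydig cells, the cells that LH stimulates, while FSH acts on Sertoli cells, which support the germ cells.

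Each library came from a separate animal, so the p-values below measure the spread between animals. Library totals ran from 21824233 to 30375928 counts. The 68 genes took 0.236%, 0.247%, 0.242% and 0.258% of all counts in the 96 h animals, 0.2995%, 0.267% and 0.283% in the 48 h animals and 0.240%, 0.222% and 0.231% in the vehicle animals. By raw share the 48 h animals were thus above all others, while the 96 h and vehicle animals overlapped. Levels per gene are given below as CPM, counts relative to the effective library size after TMM scaling. The TMM factors lay between 0.905 and 0.998 at 96 h, between 0.990 and 1.017 at 48 h and between 1.058 and 1.061 in vehicle, so they differed by group. Of 7 Sertoli, 7 germ cell, 5 peritubular, 5 macrophage and 4 Leydig cell markers measured, none was at 0 in any group. The measured markers were all loci that passed the low-count filter, so this does not check the tissue label.

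Summed over the 43 MRPL genes, the scaled level was 1579, 1553, 1700 and 1633 CPM at 96 h, 1861, 1690 and 1733 CPM at 48 h and 1400, 1324 and 1356 CPM in vehicle. Every gonadotropin animal was above every vehicle animal, and the 2 gonadotropin groups overlapped. Over the 25 MRPS genes the sums were 938, 922, 969 and 981 CPM at 96 h, 1164, 986 and 1050 CPM at 48 h and 870, 768 and 824 CPM in vehicle. Here too both gonadotropin groups lay above vehicle, and each 48 h animal lay above each 96 h animal. The ratio of the MRPL to the MRPS sum stayed between 1.60 and 1.75 in all 10 animals and averaged 1.70 ± 0.0392 (SD, n = 4) at 96 h, 1.65 ± 0.0575 (SD, n = 3) at 48 h and 1.66 ± 0.0583 (SD, n = 3) in vehicle. The 2 sets of symbols moved in parallel within that spread.

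**Figure D1:**
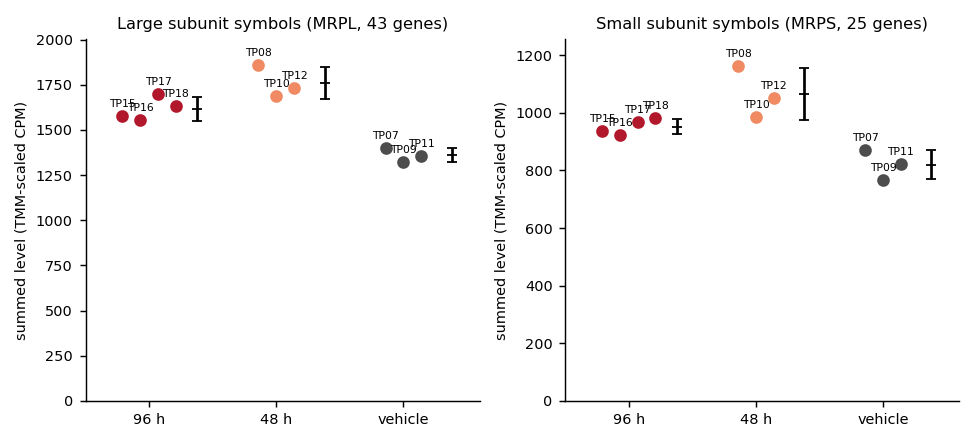
Summed TMM-scaled level (CPM, axis from 0) of the MRPL genes (left) and the MRPS genes (right) in each animal at 96 h, at 48 h and in vehicle. Points are animals with their numbers, and bars to the right of each group are mean ± SD; every gonadotropin animal lies above every vehicle animal in both panels.

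The first comparison sets 96 h of gonadotropin against vehicle. Of the 43 MRPL genes 12 were called higher and 0 lower, and of the 25 MRPS genes 8 were called higher and 0 lower (edgeR quasi-likelihood test, adjusted p under 0.05 over all loci). Among all loci tested, 10.6% were called higher and 6.89% lower. Of the 16162 loci standing for a symbol, 15.1% were called higher. The median log2 fold change was 0.28 over the MRPL genes and 0.25 over the MRPS genes, against -0.012 over all loci. Over loci standing for a symbol it was 0.055. At an unadjusted p under 0.05, 22 MRPL and 13 MRPS genes were higher, and 1 MRPL gene (MRPL24) was lower. At that threshold 4859 of all 26813 loci were higher and 4284 lower. In 34 of the 68 genes every 96 h animal was above every vehicle animal, as in 15.9% of all loci. Among the 16162 loci standing for a symbol this held in 3562. In a whole testis, a larger share of cells of a type and more RNA per cell cannot be told apart.

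MRPL13, a large subunit protein with a bacterial counterpart (chromosome 8, 119604002 to 119653590, reverse strand on rheMac8), had the smallest p of the MRPL genes. It stood at 39.6, 41.4, 45.0 and 37.7 CPM at 96 h, 42.0, 40.6 and 37.9 CPM at 48 h and 20.7, 21.8 and 23.7 CPM in vehicle. All gonadotropin animals were far above all vehicle animals, and the 2 gonadotropin groups overlapped. The log2 fold change was 0.89 ± 0.10 (SE) at 96 h (edgeR adjusted p = 0.000377), or 1.85-fold. MRPL34, 1 of the smallest proteins of the large subunit (chromosome 19, 17245173 to 17250381), stood at 25.6, 21.02, 23.7 and 25.5 CPM at 96 h, 25.9, 24.9 and 21.6 CPM at 48 h and 12.8, 13.7 and 13.7 CPM in vehicle. It too separated every gonadotropin animal from vehicle, with a log2 fold change of 0.84 ± 0.12 at 96 h (edgeR adjusted p = 0.00125).

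MRPL11, which forms the base of the stalk where translation factors dock (chromosome 14, 7992473 to 7995622), had 63.3, 52.7, 61.6 and 58.7 CPM at 96 h, 64.2, 59.5 and 56.8 CPM at 48 h and 38.97, 39.1 and 42.97 CPM in vehicle. Its log2 fold change at 96 h was 0.55 ± 0.09 (edgeR adjusted p = 0.00316), without overlap between the groups. MRPL49, a large subunit protein without a bacterial counterpart (chromosome 14, 9307965 to 9312617), had 25.4, 26.0, 26.6 and 27.2 CPM at 96 h, 27.7, 27.0 and 29.5 CPM at 48 h and 19.4, 17.3 and 18.3 CPM in vehicle. Its spread within groups was small and its log2 fold change at 96 h was 0.52 ± 0.09 (edgeR adjusted p = 0.00445). An annotated copy of MRPL49 elsewhere in the table had a mean of 415 counts, so reads of the gene and its copy may have been divided.

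Of the small subunit symbols, MRPS15, whose bacterial counterpart binds ribosomal RNA early in assembly (chromosome 1, 35659445 to 35669421, reverse strand), had the largest rise. It stood at 47.7, 42.9, 48.9 and 51.1 CPM at 96 h, 58.9, 46.9 and 48.9 CPM at 48 h and 29.2, 26.5 and 29.4 CPM in vehicle. The lowest gonadotropin animal, TP16, was well above the highest vehicle animal, TP11. The log2 fold change at 96 h was 0.75 ± 0.11 (edgeR adjusted p = 0.0014). MRPS27, an RNA-binding protein of the small subunit found in mitochondria but not in bacteria (chromosome 6, 68718841 to 68827013), had 48.0, 51.6, 48.6 and 49.8 CPM at 96 h, 59.9, 48.6 and 52.7 CPM at 48 h and 34.0, 34.9 and 32.95 CPM in vehicle. Its 96 h value against vehicle was 0.54 ± 0.09 on the log2 scale (edgeR adjusted p = 0.00302). Both groups of gonadotropin animals lay above vehicle.

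MRPS26, another mitochondria-specific protein (chromosome 10, 35874695 to 35876899), had 59.7, 55.3, 56.5 and 61.6 CPM at 96 h, 59.4, 56.0 and 54.5 CPM at 48 h and 46.2, 36.05 and 41.1 CPM in vehicle. Its rise was of about the same size at both times, with log2 fold changes of 0.50 ± 0.10 at 96 h (edgeR adjusted p = 0.00643) and 0.46 ± 0.10 at 48 h (edgeR adjusted p = 0.0141). MRPS21, a small protein with a bacterial counterpart (chromosome 1, 124663921 to 124677526), had 45.4, 39.5, 49.4 and 48.9 CPM at 96 h, 51.7, 45.7 and 50.9 CPM at 48 h and 35.3, 32.1 and 34.1 CPM in vehicle, and its log2 fold change at 96 h was 0.44 ± 0.10 (edgeR adjusted p = 0.0145). MRPS33 passed the test at 96 h (0.38 ± 0.11, edgeR adjusted p = 0.0326) and not at 48 h (0.22 ± 0.11, edgeR adjusted p = 0.224), and the difference between the 2 times did not pass (0.16 ± 0.11, edgeR adjusted p = 0.404). Of the other genes called at 96 h, the log2 fold changes of MRPL4, MRPL9, MRPL12, MRPL17, MRPL19, MRPL22, MRPL52, MRPL57, MRPS10, MRPS12 and MRPS14 lay between 0.28 (MRPL19) and 0.63 (MRPL52).

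Of the 20 genes called at 96 h, 13 stayed called whichever animal was left out: MRPL9, MRPL11, MRPL12, MRPL13, MRPL17, MRPL22, MRPL34, MRPL49, MRPL52, MRPL57, MRPS15, MRPS26 and MRPS27. The other 7 lost their call without some animal, among them MRPS21 without TP09 (edgeR adjusted p = 0.0521) or TP11 (0.0503). MRPS33 lost it without TP07, TP09, TP15, TP16 or TP17. The number of MRPS genes called higher at 96 h was 3 without TP09, 5 without TP11 and 4 without TP17, while the MRPL count stayed between 10 and 14. Here and below, counts from fits without some animals stand without the share of all loci called in the same fit. A fit of fewer animals can call fewer loci of any kind, so a lower count is not a result about these genes alone.

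The second comparison sets 48 h of gonadotropin against vehicle. Of the 43 MRPL genes 24 were called higher and 1 lower, and of the 25 MRPS genes 14 were called higher and 0 lower. Among all loci 8.53% were called higher and 3.67% lower, and of loci standing for a symbol 12.8% were called higher. The MRPL and MRPS counts exceeded those at 96 h with all animals. Without TP08, 11 MRPL and 5 MRPS genes were called higher at 48 h and 12 and 8 at 96 h. That fit held fewer 48 h animals, and its share of all loci called is not given here. The median log2 fold change was 0.44 over the MRPL genes and 0.43 over the MRPS genes, against -0.07 over all loci. Over loci standing for a symbol it was 0.048. All MRPS genes and all MRPL genes but MRPL24 had a positive log2 fold change, though under upper-quartile scaling 22 MRPS and 41 MRPL genes did. In 54 genes every 48 h animal was above every vehicle animal, as in 18.1% of all loci. In MRPL24 every 48 h animal was below every vehicle animal, as in 4826 of all 26813 loci. Of the 16162 loci standing for a symbol, 4182 were above and 2221 below in this way.

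MRPL52, a large subunit protein without a bacterial counterpart (chromosome 7, 84157658 to 84162208), had the largest rise at 48 h. It stood at 15.3, 12.4, 13.3 and 16.6 CPM at 96 h, 20.4, 19.01 and 20.2 CPM at 48 h and 9.91, 8.70 and 9.24 CPM in vehicle. The 3 groups did not overlap, with the 48 h animals highest and the 96 h animals between them and vehicle. The log2 fold change at 48 h was 1.10 ± 0.14 (edgeR adjusted p = 0.00126), or 2.14-fold, and at 96 h it was 0.63 ± 0.13 (edgeR adjusted p = 0.0106). MRPL13 had a log2 fold change of 0.86 ± 0.10 at 48 h (edgeR adjusted p = 0.000902), close to its 0.89 at 96 h.

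MRPL12, which forms the flexible stalk of the large subunit and is known in human cells to bind the mitochondrial RNA polymerase (chromosome 16, 75573981 to 75579452), had 23.7, 22.6, 26.9 and 25.4 CPM at 96 h, 32.2, 31.2 and 27.8 CPM at 48 h and 17.3, 17.5 and 18.3 CPM in vehicle. As with MRPL52, each 48 h animal was above each 96 h animal, and each of those above vehicle. Its log2 fold change was 0.78 ± 0.11 at 48 h (edgeR adjusted p = 0.00175) and 0.48 ± 0.10 at 96 h (edgeR adjusted p = 0.0116). MRPL34, MRPL11 and MRPL49 rose by 0.85 ± 0.12, 0.58 ± 0.10 and 0.62 ± 0.10 at 48 h (edgeR adjusted p = 0.00191, 0.00409 and 0.00322).

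Of the small subunit symbols, MRPS15 again led at 48 h with 0.86 ± 0.11 on the log2 scale (edgeR adjusted p = 0.00124), and MRPS27 followed by p with 0.66 ± 0.09 (edgeR adjusted p = 0.00184). MRPS12, a protein of the decoding centre (chromosome 19, 34676233 to 34678841), had 22.2, 23.9, 24.2 and 20.4 CPM at 96 h, 27.8, 29.5 and 25.7 CPM at 48 h and 18.5, 13.4 and 15.99 CPM in vehicle. Its groups did not overlap, and the log2 fold change at 48 h was 0.79 ± 0.14 (edgeR adjusted p = 0.00475). MRPS14, a small subunit protein with a bacterial counterpart (chromosome 1, 192522172 to 192531263), had 32.05, 31.5, 33.3 and 25.4 CPM at 96 h, 42.8, 32.5 and 32.0 CPM at 48 h and 20.4, 19.3 and 22.8 CPM in vehicle. TP08 stood above the other 48 h animals here, and the 48 h log2 value against vehicle was 0.78 ± 0.14 (edgeR adjusted p = 0.00651). At 96 h MRPS12 and MRPS14 had 0.51 ± 0.13 and 0.55 ± 0.14 (edgeR adjusted p = 0.0229 and 0.0206), calls that MRPS12 lost without TP09, TP11 or TP17 and MRPS14 without TP07, TP09 or TP17 (edgeR adjusted p up to 0.0725).

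**Figure D2:**
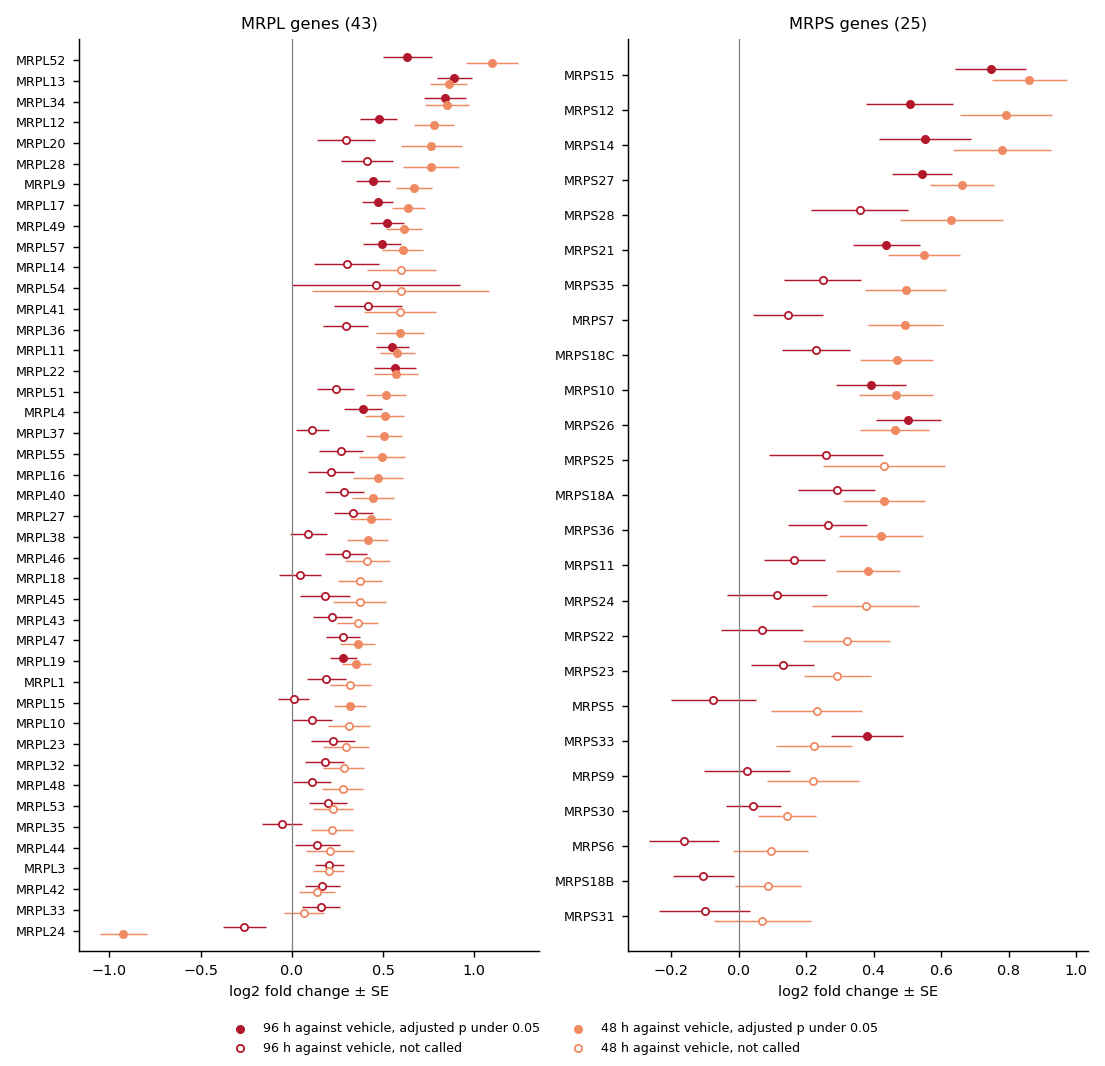
Log2 fold change with its SE against vehicle at 96 h (dark red) and 48 h (orange) for each MRPL gene (left) and MRPS gene (right), in order of the 48 h value. Filled points passed the edgeR test at an adjusted p under 0.05; most points lie right of 0 at both times, and MRPL24 at the bottom left is the exception called lower at 48 h.

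TP08 weighed on the 48 h comparison. It was the highest 48 h animal in 50 of the 68 genes and the highest of all 10 animals in 45, while TP09 was the lowest vehicle animal in 38. Without TP09, 14 MRPL and 5 MRPS genes were called higher at 48 h. The MRPS count was also 8 without TP11 and 9 without TP12. The shares of all loci called in these reduced fits are not given here, so the lower counts may not be particular to these genes. The medians moved less: with each animal left out in turn they stayed between 0.40 and 0.52 for MRPL and between 0.39 and 0.47 for MRPS. Of the 39 genes called at 48 h, 17 stayed called whichever animal was left out, among them MRPL11, MRPL12, MRPL13, MRPL24, MRPL34, MRPL49, MRPL52, MRPS12, MRPS14, MRPS15 and MRPS27. MRPS26 lost its 48 h call without TP08 (edgeR adjusted p = 0.0610) or TP09 (0.0543).

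Age differed between the groups, since TP08 and TP07 were over 20 months old and all 96 h animals were 14 months old. Without TP08 and TP07, 8 MRPL and 4 MRPS genes were called higher at 48 h, with medians of 0.42 and 0.38. At 96 h the counts without them were 9 and 5, with medians of 0.30 and 0.26. The shares of all loci called without TP08 and TP07 are not given here. With age class as a block the medians were 0.44 and 0.43 at 48 h and 0.32 and 0.33 at 96 h, and 23 MRPL and 12 MRPS genes were called at 48 h, against 11 and 4 at 96 h. Among animals of 14 months the median log2 differences of the 96 h animals from TP09 (vehicle) were 0.29 (MRPL) and 0.29 (MRPS), and those of TP10 (48 h) from TP09 were 0.38 and 0.41. These rest on TP09 alone in vehicle, the lowest vehicle animal in 38 of the 68 genes. Those at 48 h also rest on TP10 alone, the lowest 48 h animal in 46. The labels give no sequencing batch, and the 96 h animals carry the highest animal numbers, so a batch by number and the 96 h group cannot be told apart.

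**Figure D3:**
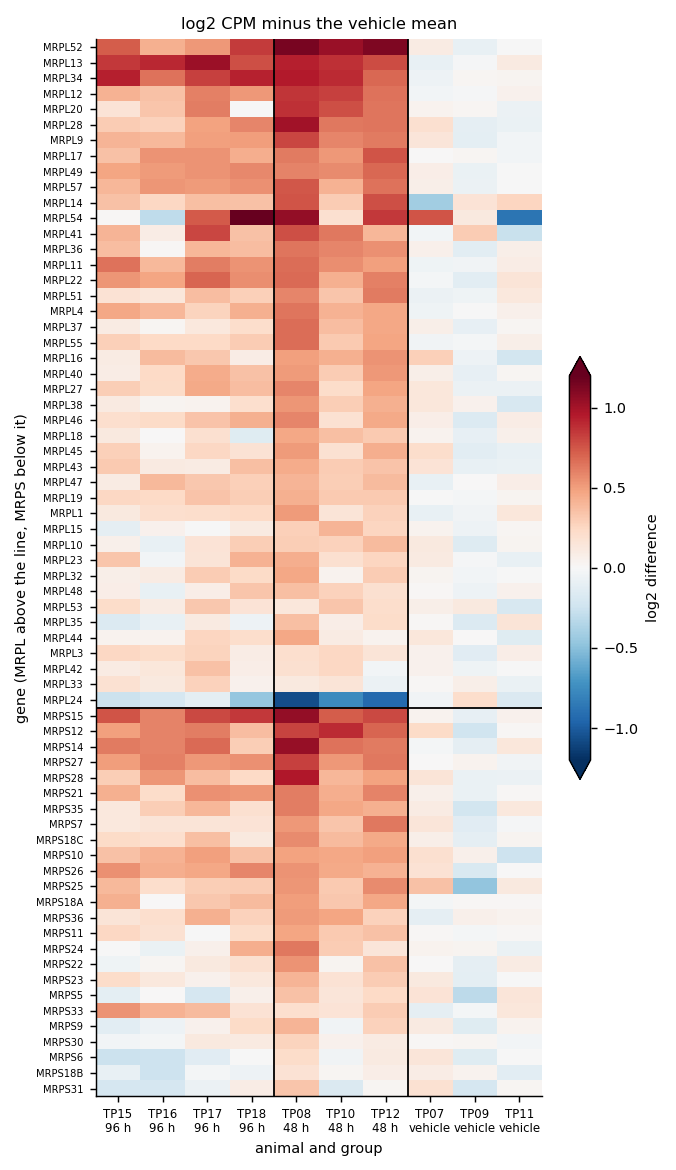
Log2 CPM minus the vehicle mean for each of the 68 genes (rows, MRPL above the line and MRPS below it, in order of the 48 h fold change) in each animal (columns, 96 h, 48 h, vehicle). Red is above and blue below the vehicle mean; TP08 is the darkest red column, and MRPL54 varies most within groups.

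Both comparisons use the same vehicle animals, so they are not independent. Side by side, 12 MRPL and 7 MRPS genes were called higher at both times. The shares of all loci called at both times, or at 48 h only, are not given here, so these counts have no background beside them. A further 12 MRPL genes (MRPL15, MRPL16, MRPL20, MRPL27, MRPL28, MRPL36, MRPL37, MRPL38, MRPL40, MRPL47, MRPL51 and MRPL55) and 7 MRPS genes (MRPS7, MRPS11, MRPS18A, MRPS18C, MRPS28, MRPS35 and MRPS36) passed at 48 h and did not pass at 96 h. Their 96 h log2 fold changes ran from 0.01 for MRPL15 to 0.41 for MRPL28, and under upper-quartile scaling those of MRPL15 (-0.14), MRPL37 (-0.04), MRPL38 (-0.06) and MRPS7 (-0.0013) were negative. For none of these 19 did the difference between the 2 times pass the test.

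The third comparison sets 96 h against 48 h. Of the MRPL genes 1 (MRPL24) was called higher and 0 lower, and of the MRPS genes 0 were called in either direction, against 0.817% higher and 0.25% lower among all loci. The median log2 fold change was -0.14 over the MRPL genes and -0.19 over the MRPS genes, against 0.02 over all loci. Over loci standing for a symbol it was -0.022, and 38 MRPL and 23 MRPS genes had a negative value. In 19 genes every 96 h animal was below every 48 h animal, as in 8.61% of all loci, and in MRPL24 every 96 h animal was above, as in 7.93%. Of the 16162 loci standing for a symbol, 1758 were below and 1270 above in this way. At an unadjusted p under 0.05, 12 MRPL and 6 MRPS genes were lower at 96 h, as were 2462 of all 26813 loci. DESeq2 called 7 MRPL genes and 1 MRPS gene lower, while edgeR's exactTest and voom called 0 lower. The shares of all loci that these tools called are not given here. DESeq2 also called more MRPL genes higher at 48 h against vehicle than the quasi-likelihood test did (32 against 24). MRPL52 (-0.46 ± 0.13, edgeR adjusted p = 0.107), MRPL37 (-0.39 ± 0.09, edgeR adjusted p = 0.0685) and MRPL15 (-0.31 ± 0.08, edgeR adjusted p = 0.0978) had the smallest adjusted p among the negative values. Among animals of 14 months the median log2 differences between the 96 h animals and TP10 were -0.05 (MRPL) and -0.04 (MRPS).

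MRPL24 went against the rest of the family, and its locus needs care. The locus that the rule chose lies on chromosome 3 (136817060 to 136852284, reverse strand) as a single block of 35225 bases, and a copy of the gene is annotated inside it. It stood at 57.3, 59.3, 63.2 and 49.7 CPM at 96 h, 32.6, 40.3 and 35.8 CPM at 48 h and 66.6, 79.2 and 60.6 CPM in vehicle. The 48 h animals were below all others, and the 96 h animals overlapped with vehicle. The log2 fold change was -0.92 ± 0.13 at 48 h against vehicle (edgeR adjusted p = 0.00168), -0.26 ± 0.12 at 96 h against vehicle (edgeR adjusted p = 0.146) and 0.66 ± 0.12 at 96 h against 48 h (edgeR adjusted p = 0.0315). The last call was lost without TP08 (0.59, edgeR adjusted p = 0.156), TP10 (0.75, 0.0588), TP12 (0.65, 0.102), TP15 (0.66, 0.0579) or TP17 (0.61, 0.0891).

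A second locus named MRPL24 has 6 exons and 1072 exonic bases on chromosome 1 (131366193 to 131370463, reverse strand). It stood at 27.9, 25.7, 29.3 and 24.96 CPM at 96 h, 39.5, 33.4 and 30.0 CPM at 48 h and 21.6, 19.96 and 22.7 CPM in vehicle. Its order was that of most other members, with the 48 h animals highest and vehicle lowest. The log2 fold change was 0.68 ± 0.12 at 48 h (edgeR adjusted p = 0.0058) and 0.33 ± 0.12 at 96 h (edgeR adjusted p = 0.0699), both opposite in sign to the longer locus. MRPL20 also had a pair of loci: the chosen one on chromosome 1 has 1 exon (0.30 ± 0.16 at 96 h and 0.77 ± 0.17 at 48 h, edgeR adjusted p = 0.214 and 0.0143). The other, on chromosome 19 with 3 exons, gave 0.49 ± 0.17 and 0.83 ± 0.18 (edgeR adjusted p = 0.0647 and 0.0114). The 48 h call was lost without TP08 (edgeR adjusted p = 0.0618) or TP11 (0.0553) at the first locus and without TP08 (0.0532) at the other.

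Several symbols of the family have roles that differ from what their names say. MRPS18A and MRPS30 are proteins of the large subunit. MRPS18A, a paralog of bacterial S18, had 30.5, 22.7, 28.3 and 29.6 CPM at 96 h, 32.1, 28.4 and 31.3 CPM at 48 h and 22.4, 22.9 and 22.9 CPM in vehicle. The 48 h animals lay above vehicle (0.43 ± 0.12, edgeR adjusted p = 0.0413), while TP16 put the 96 h group across the vehicle range (0.29 ± 0.11, edgeR adjusted p = 0.0999). MRPS18C, a paralog in the small subunit, had 25.4, 24.9, 27.8 and 23.4 CPM at 96 h, 32.0, 28.2 and 29.6 CPM at 48 h and 22.7, 20.1 and 22.2 CPM in vehicle. It passed at 48 h (0.47 ± 0.11, edgeR adjusted p = 0.0171) and not at 96 h (0.23 ± 0.10, edgeR adjusted p = 0.134). MRPS18B, the third paralog, had 42.5, 37.9, 44.5 and 43.3 CPM at 96 h, 50.8, 45.7 and 47.5 CPM at 48 h and 48.0, 46.3 and 41.3 CPM in vehicle. Its groups overlapped vehicle at both times, and neither log2 fold change passed (-0.10 ± 0.09 and 0.09 ± 0.10, edgeR adjusted p = 0.448 and 0.594).

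The 48 h call of MRPS18A was lost without any 1 of TP07, TP08, TP09, TP11, TP12, TP17 or TP18 (edgeR adjusted p up to 0.135), and that of MRPS18C without TP08 (0.0716) or TP09 (0.0685). MRPS30 had 62.9, 63.2, 69.6 and 69.3 CPM at 96 h, 77.5, 66.7 and 68.9 CPM at 48 h and 64.7, 65.2 and 63.0 CPM in vehicle. Neither test passed, at 96 h (0.04 ± 0.08, edgeR adjusted p = 0.739) or at 48 h (0.14 ± 0.09, edgeR adjusted p = 0.306). MRPS36, which despite its symbol is a subunit of the oxoglutarate dehydrogenase complex in human cells, had 17.1, 17.7, 20.65 and 18.7 CPM at 96 h, 21.9, 21.3 and 18.7 CPM at 48 h and 14.3, 16.05 and 15.9 CPM in vehicle. Both gonadotropin groups lay above vehicle, but MRPS36 passed at 48 h only narrowly (0.42 ± 0.12, edgeR adjusted p = 0.0495) and lost that call without any 1 of the 10 animals. MRPL58, the peptidyl-tRNA hydrolase of the large subunit, is listed under its older symbol ICT1 and so is not among the 68. It had 17.0, 17.5, 21.1 and 18.6 CPM at 96 h, 20.9, 18.002 and 20.2 CPM at 48 h and 16.3, 12.5 and 14.3 CPM in vehicle, with log2 fold changes of 0.37 ± 0.13 and 0.45 ± 0.14 (edgeR adjusted p = 0.0772 and 0.0584).

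Grouped by structural role, 27 measured proteins of the large subunit have a bacterial counterpart. Of these 9 were called higher at 96 h (median log2 fold change 0.28), and 17 were higher and 1 lower at 48 h (median 0.47). Of 18 large subunit proteins that the bacterial large subunit lacks, MRPS18A and MRPS30 included, 3 were called higher at 96 h (median 0.23) and 8 at 48 h (median 0.42). Of 13 small subunit proteins with a bacterial counterpart, 5 were called higher at 96 h (median 0.23) and 9 at 48 h (median 0.47). Of 9 mitochondria-specific small subunit proteins, 3 were called higher at 96 h (MRPS26, MRPS27 and MRPS33, class median 0.25). At 48 h 3 were called higher (MRPS26, MRPS27 and MRPS35, class median 0.32). Among all loci 10.6% were called higher at 96 h and 8.53% at 48 h, and among loci standing for a symbol 15.1% and 12.8%. The 3 of 18 at 96 h lie near those shares. Differences between the classes were not tested. Without TP08 the 48 h counts were 7, 4, 4 and 1 in the same order of classes, and without TP09 they were 9, 5, 4 and 1. Without TP11 the first 3 were 11, 5 and 5, and the second was 5 without TP12. At 96 h the count of 5 became 1 without TP09 and 2 without TP11 or TP17.

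At the other end were the members with the lowest fold changes. MRPL35, a large subunit protein with a bacterial counterpart, had 36.8, 38.8, 44.7 and 39.6 CPM at 96 h, 53.1, 43.8 and 48.3 CPM at 48 h and 41.6, 36.8 and 46.1 CPM in vehicle (-0.06 ± 0.11 and 0.22 ± 0.12, edgeR adjusted p = 0.751 and 0.244). MRPL33 had 24.4, 23.3, 26.1 and 22.3 CPM at 96 h, 23.3, 23.9 and 20.5 CPM at 48 h and 21.7, 22.6 and 20.3 CPM in vehicle (0.16 ± 0.10 and 0.07 ± 0.11, edgeR adjusted p = 0.304 and 0.731). Vehicle overlapped with both gonadotropin groups for each of them. MRPS6 had 43.9, 44.1, 47.7 and 52.3 CPM at 96 h, 61.0, 51.0 and 56.6 CPM at 48 h and 58.2, 47.3 and 52.4 CPM in vehicle (-0.16 ± 0.10 and 0.10 ± 0.11, edgeR adjusted p = 0.293 and 0.615). MRPS31 had 45.3, 45.5, 49.8 and 55.4 CPM at 96 h, 65.8, 46.4 and 53.2 CPM at 48 h and 59.1, 45.3 and 53.2 CPM in vehicle (-0.10 ± 0.13 and 0.07 ± 0.14, edgeR adjusted p = 0.633 and 0.791). An annotated copy of MRPS31 had a mean of 1128 counts, so its value is uncertain.

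In all, 18 MRPL and 10 MRPS genes passed in neither comparison with vehicle. The 18 MRPL genes were MRPL1, MRPL3, MRPL10, MRPL14, MRPL18, MRPL23, MRPL32, MRPL33, MRPL35, MRPL41, MRPL42, MRPL43, MRPL44, MRPL45, MRPL46, MRPL48, MRPL53 and MRPL54. The 10 MRPS genes were MRPS5, MRPS6, MRPS9, MRPS18B, MRPS22, MRPS23, MRPS24, MRPS25, MRPS30 and MRPS31. A p that misses the threshold does not show that they stayed level: MRPL14 and MRPL41 had 48 h log2 fold changes of 0.60 ± 0.19 and 0.59 ± 0.20 with an edgeR adjusted p of 0.0634 and 0.0759.

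Levels between genes are compared as CPM per kilobase of exon in the deposited transcript models. Over all animals the highest MRPL genes were MRPL51 (57.0 CPM per kb), MRPL11 (54.5) and MRPL32 (54.2), and the lowest were MRPL24 (1.55), MRPL15 (4.83) and MRPL54 (6.04). The median was 24.4 and the range 36.9-fold. The value of MRPL24 is that of its chosen chromosome 3 locus. Its 6-exon locus had 25.7 CPM per kb, above the median, so the lower end of the range depends on the locus chosen. Of the MRPS genes, MRPS21 (74.0 CPM per kb), MRPS6 (60.1) and MRPS26 (52.3) were highest and MRPS25 (6.28), MRPS30 (8.21) and MRPS11 (8.76) lowest, a range of 11.8-fold around a median of 20.5. High and low members were thus found among genes that rose and genes that did not pass. The models of MRPL24, MRPL3 (20936 bases), MRPL42 (10419), MRPL15 (9837), MRPS30 (8176), MRPL19 (6770) and MRPL53 (5128) exceed 5000 bases, and their values per kb depend on those lengths.

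The 7 genes with models over 5000 bases had median log2 fold changes of 0.17 at 96 h and 0.20 at 48 h, with 1 gene called higher at 96 h, and 2 higher and 1 lower at 48 h. The 61 others had medians of 0.28 and 0.47, with 19 and 36 called higher. This division was chosen after the values were seen and was not tested.

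MRPL51, a mitochondria-specific protein, had 42.6, 41.3, 48.5 and 45.8 CPM at 96 h, 56.6, 47.3 and 58.0 CPM at 48 h and 35.8, 36.4 and 41.0 CPM in vehicle. It passed at 48 h (0.52 ± 0.11, edgeR adjusted p = 0.0114) but not without TP08 (0.0512), and not at 96 h (0.24 ± 0.10, edgeR adjusted p = 0.124). MRPL32, which is processed by a mitochondrial protease before it joins the ribosome, had 47.9, 48.9, 56.5 and 53.5 CPM at 96 h, 63.1, 47.0 and 56.5 CPM at 48 h and 46.8, 44.6 and 45.5 CPM in vehicle. All gonadotropin animals were above vehicle, though the smallest gap was narrow and neither test passed (0.18 ± 0.11 and 0.28 ± 0.11, edgeR adjusted p = 0.26 and 0.131). MRPL15 had 40.8, 45.5, 43.8 and 47.4 CPM at 96 h, 53.8, 58.4 and 52.8 CPM at 48 h and 45.3, 42.1 and 44.8 CPM in vehicle. Only the 48 h animals stood apart (0.32 ± 0.09, edgeR adjusted p = 0.04), and that call was lost without any 1 of TP07, TP08, TP09, TP10, TP11, TP12 or TP16 (edgeR adjusted p up to 0.127).

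MRPL54 was the least precise member, with 3.53, 2.82, 5.82 and 9.13 CPM at 96 h, 7.25, 4.005 and 6.31 CPM at 48 h and 5.91, 3.79 and 1.91 CPM in vehicle. Its groups overlapped, and log2 fold changes of 0.46 ± 0.46 and 0.60 ± 0.49 did not pass (edgeR adjusted p = 0.511 and 0.458). MRPS25 had 23.9, 21.1, 22.4 and 22.6 CPM at 96 h, 26.3, 22.7 and 27.0 CPM at 48 h and 23.4, 13.2 and 19.8 CPM in vehicle, in which TP09 was low. Neither comparison with vehicle passed (0.26 ± 0.17 and 0.43 ± 0.18, edgeR adjusted p = 0.306 and 0.144). MRPS11 had 39.4, 37.5, 33.1 and 38.6 CPM at 96 h, 46.1, 41.2 and 42.2 CPM at 48 h and 33.5, 32.5 and 33.4 CPM in vehicle. It rose at 48 h (0.38 ± 0.10, edgeR adjusted p = 0.0246), a call lost without any 1 of TP07, TP08, TP09, TP11 or TP12 (edgeR adjusted p up to 0.101), and at 96 h it did not pass (0.17 ± 0.09, edgeR adjusted p = 0.218).

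**Figure D4:**
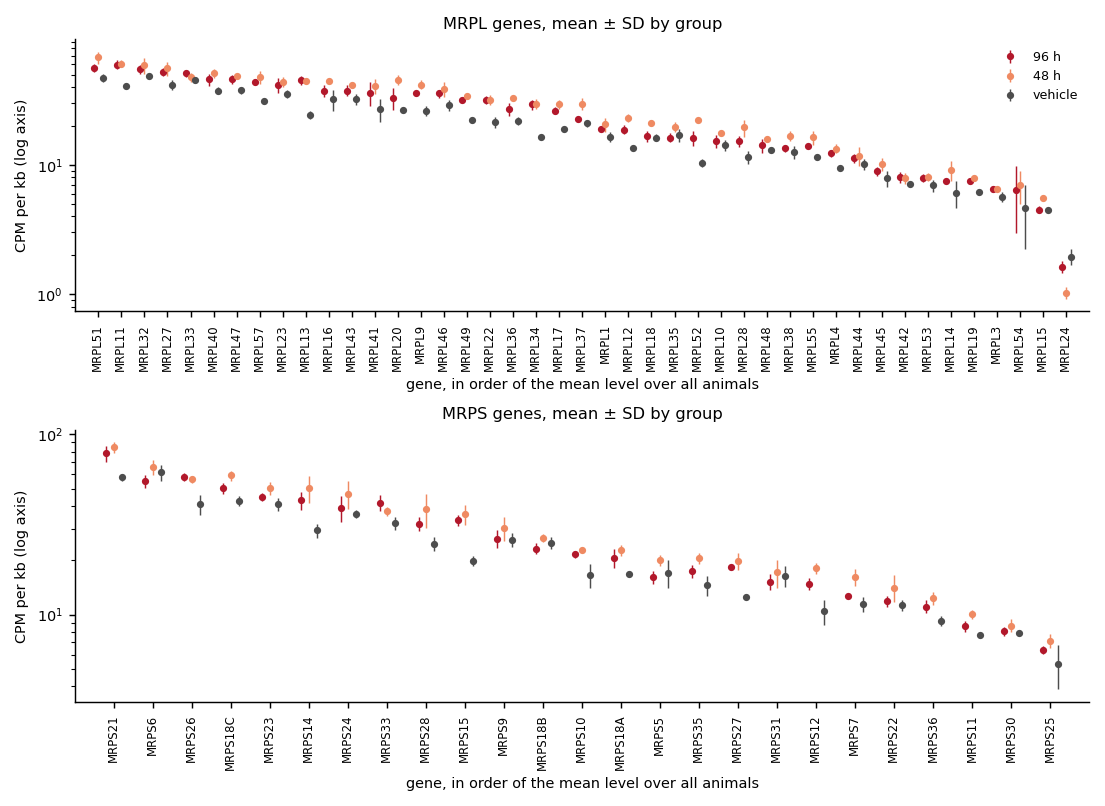
Mean ± SD of CPM per kilobase of exon (log axis) at 96 h, 48 h and in vehicle for each MRPL gene (top) and MRPS gene (bottom), in order of the mean over all animals. Levels run from 57.0 (MRPL51) down to 1.55 (MRPL24) and from 74.0 (MRPS21) down to 6.28 (MRPS25), and MRPL24 is the one MRPL gene whose vehicle mean is the highest of its groups. The MRPL24 points are those of its chromosome 3 locus, and its 6-exon locus had 25.7.

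A further 8 loci join an MRP symbol to a neighbouring gene, so that their reads could not be divided and the rule leaves them out (MRPL2, MRPL30, MRPL39, MRPL50, MRPS2, MRPS16, MRPS17 and MRPS34). Among these joined loci MRPL50 with BAAT had log2 fold changes of 0.50 ± 0.13 at 96 h and 0.59 ± 0.14 at 48 h (edgeR adjusted p = 0.0273 and 0.0205), and MRPL39 with MIR155HG had -0.14 ± 0.11 and 0.01 ± 0.12 (edgeR adjusted p = 0.414 and 0.965). MRPL21 was not analysed here.

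Mitoribosomal proteins under other symbols were read from a list. Of 5 listed 3 were measured. DAP3, a GTP-binding protein of the small subunit, had 51.0, 55.0, 47.1 and 50.2 CPM at 96 h, 67.8, 53.0 and 54.1 CPM at 48 h and 33.3, 33.6 and 44.7 CPM in vehicle. It passed at 96 h (0.45 ± 0.13, edgeR adjusted p = 0.0366) and at 48 h (0.65 ± 0.14, edgeR adjusted p = 0.012), and all gonadotropin animals were above vehicle. The 96 h call was lost without any 1 of TP07, TP09, TP15, TP16, TP17 or TP18 (edgeR adjusted p up to 0.136) and the 48 h call without TP08 (0.0546) or TP09 (0.0540). CHCHD1, also in the small subunit, passed at both times (0.56 ± 0.09 and 0.49 ± 0.10, edgeR adjusted p = 0.00319 and 0.00943), and PTCD3, an RNA-binding small subunit protein, at neither (0.07 ± 0.11 and 0.12 ± 0.12, edgeR adjusted p = 0.713 and 0.529).

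Of 15 measured factors that build the mitoribosome or mature its rRNA, 1 was called higher at 96 h and 2 at 48 h, shares near the 10.6% and 8.53% among all loci. Their median log2 fold changes were -0.0025 at 96 h and 0.15 at 48 h, and under upper-quartile scaling -0.15 and 0.02, with 3 called lower at 96 h. Under TMM 0 were called lower at 96 h, against 6.89% of all loci. Upper-quartile scaling moved the median of all loci by -0.15 at 96 h, and its share of all loci called lower is not given here. The 3 are therefore not read as a result about these factors. MPV17L2, an inner membrane protein needed for assembly, passed at both times (0.45 ± 0.12 and 0.77 ± 0.13, edgeR adjusted p = 0.0271 and 0.00412). Its 96 h call was lost without TP07, TP09, TP11 or TP17 (edgeR adjusted p up to 0.0888). MTERF3, which acts in assembly of the large subunit, passed at 48 h (0.59 ± 0.15, edgeR adjusted p = 0.0276), and that call was lost without TP07, TP08, TP09 or TP10 (edgeR adjusted p up to 0.0981).

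Of 12 measured factors of mitochondrial translation, 3 were called higher at 96 h and 5 at 48 h, with medians of 0.22 and 0.33. The shares called higher among all loci were 10.6% and 8.53%. The 96 h count was 1 without TP07, and the 48 h count was 2 without TP08 or TP09 and 3 without TP07, TP11 or TP12. TUFM, the elongation factor that brings aminoacyl-tRNA to the ribosome, had 106, 115, 113 and 116 CPM at 96 h, 131, 117 and 135 CPM at 48 h and 89.2, 86.5 and 89.8 CPM in vehicle. Its groups did not overlap vehicle (0.34 ± 0.07 and 0.53 ± 0.08, edgeR adjusted p = 0.0111 and 0.00226). SLIRP, which stabilises mitochondrial mRNA, passed at both times (0.46 ± 0.10 and 0.53 ± 0.11, edgeR adjusted p = 0.0141 and 0.011) but not at 96 h without TP07 (0.0651). MTRF1L, a release factor, also passed at both times (0.41 ± 0.11 and 0.39 ± 0.11, edgeR adjusted p = 0.0246 and 0.0452). The 96 h call of MTRF1L was lost without TP07, TP09 or TP17 and its 48 h call without any 1 of 7 animals.

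TSFM, the exchange factor of TUFM, passed at 48 h (0.51 ± 0.12, edgeR adjusted p = 0.0177), as did TACO1, an activator of translation of a cytochrome oxidase subunit (0.47 ± 0.12, edgeR adjusted p = 0.0234). TSFM lost that call without TP08, TP09 or TP11, and TACO1 without TP07, TP08, TP09 or TP12. MRRF, which recycles ribosomes after termination, was called lower at 96 h than at 48 h (-0.39 ± 0.08, edgeR adjusted p = 0.0479), a call that the omission of any 1 animal ended (edgeR adjusted p from 0.0639 to 0.183).

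Of 11 measured genes of mitochondrial DNA replication and transcription, 0 were called at 96 h (2 at an unadjusted p under 0.05) and 5 were higher at 48 h. The shares called higher among all loci were 10.6% and 8.53%. At the unadjusted threshold 4859 of 26813 loci were higher at 96 h. HSD17B10, a subunit of mitochondrial RNase P, led at 48 h (0.66 ± 0.12, edgeR adjusted p = 0.00567), followed by ELAC2, which cuts the other end of tRNAs (0.64 ± 0.14, edgeR adjusted p = 0.0144), and SSBP1, which binds single-stranded mitochondrial DNA (0.45 ± 0.10, edgeR adjusted p = 0.0182). ELAC2 lost its call without TP07 (0.0515), and SSBP1 without TP08, TP09 or TP11. The count of 5 became 2 without TP08, TP09 or TP11 and 3 without TP07, TP10 or TP12. POLRMT, the mitochondrial RNA polymerase, had -0.22 ± 0.12 at 96 h and 0.13 ± 0.13 at 48 h (edgeR adjusted p = 0.224 and 0.548).

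Transcripts of mitochondrial DNA, which the mitoribosome translates, did not pass the test. The joined locus of most mitochondrial mRNAs had log2 fold changes of -0.06 ± 0.21 at 96 h and -0.29 ± 0.23 at 48 h (edgeR adjusted p = 0.856 and 0.442). Mitochondrial loci took 2.42%, 3.09%, 1.91% and 2.40% of counts at 96 h, 2.69%, 1.37% and 2.48% at 48 h and 2.92%, 2.95% and 2.59% in vehicle, so the groups overlapped and TP10 was the lowest animal.

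Regulators of nuclear genes for mitochondrial proteins were read from a list of which 9 were measured. At 96 h 1 was called higher and 0 lower, with a median of 0.08, and at 48 h 3 were higher and 0 lower, with a median of 0.15, next to 10.6% and 8.53% higher among all loci. Upper-quartile scaling put the medians at -0.07 and 0.02. MYC, a growth regulator, had 42.7, 31.0, 36.9 and 24.2 CPM at 96 h, 40.2, 42.5 and 37.7 CPM at 48 h and 14.9, 16.9 and 15.7 CPM in vehicle. All gonadotropin animals were above vehicle (1.09 ± 0.17 and 1.34 ± 0.18, edgeR adjusted p = 0.00227 and 0.00133). ESRRA, a nuclear receptor, and PPRC1, a coactivator, passed at 48 h (0.64 ± 0.10 and 0.62 ± 0.12, edgeR adjusted p = 0.00293 and 0.00893) but not at 96 h (0.26 ± 0.09 and 0.35 ± 0.12, edgeR adjusted p = 0.0754 and 0.0585), and for neither did the difference between the 2 times pass. NRF1, a factor known to bind promoters of mitochondrial protein genes in human cells, had 0.07 ± 0.08 and 0.05 ± 0.09 (edgeR adjusted p = 0.581 and 0.731). PPARGC1A, a coactivator of mitochondrial biogenesis that was named after its values were seen, had negative values of -0.61 ± 0.24 and -0.28 ± 0.26 that did not pass (edgeR adjusted p = 0.102 and 0.526).

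Next to 2 larger gene families, the mitoribosomal genes lay between. Of 72 nuclear-encoded respiratory chain genes, 45 were called higher and 1 lower at 96 h and 59 higher at 48 h, with median log2 fold changes of 0.39 and 0.65. Of 83 cytosolic ribosomal protein genes, 1 was called higher at 96 h and 4 at 48 h, and both medians were 0.08, which upper-quartile scaling turned to -0.08 at 96 h and -0.05 at 48 h. For comparison, 10.6% of all loci were called higher at 96 h and 8.53% at 48 h. With all animals, the cytosolic counts lay below these shares and the respiratory chain counts above them. Differences between the families were not tested. Single animals weighed on these counts: at 96 h the respiratory chain count was 29, 26 and 29 without TP07, TP09 and TP11, and under upper-quartile scaling it was 24. The cytosolic count at 96 h was 10 without TP16 and 0 without TP07, TP09, TP11, TP12, TP15 or TP17, and at 48 h it was 2 without TP07 or TP11.

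**Figure D5:**
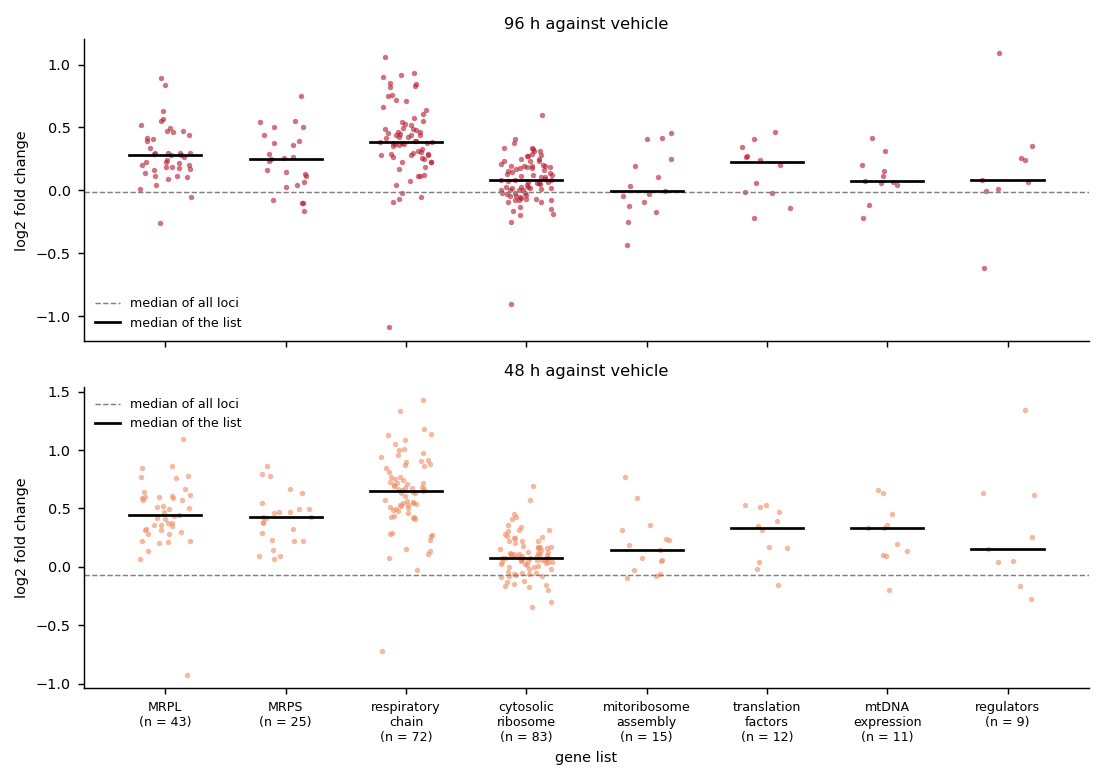
Log2 fold change against vehicle of each gene (points) in 8 gene lists at 96 h (top) and 48 h (bottom), with the median of each list (black bar) and of all loci (dashed line). The MRPL and MRPS medians (0.28 and 0.25 at 96 h, 0.44 and 0.43 at 48 h) lie above the cytosolic ribosome medians (0.08 at both times, below 0 under upper-quartile scaling) and below the respiratory chain medians (0.39 and 0.65).

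Markers of cell types moved with the groups as well, and their part in the mitoribosomal values was not tested. Among all loci, 10.6% were called higher and 6.89% lower at 96 h, and 8.53% and 3.67% at 48 h. The 4 measured Leydig cell markers summed to 1099 to 1404 CPM at 96 h, 1464 to 1828 CPM at 48 h and 146 to 297 CPM in vehicle, and 3 of them were called higher at each time. The 7 Sertoli markers summed to 1632 to 1999 CPM at 96 h, 1739 to 2274 CPM at 48 h and 1531 to 1970 CPM in vehicle, with 3 called higher at 96 h and 2 at 48 h. Their median log2 fold changes were 0.19 and 0.04, and at each time 5 of the 7 were positive. The 7 measured germ cell markers summed to 224 to 323 CPM at 96 h, 259 to 306 CPM at 48 h and 437 to 465 CPM in vehicle, with 6 called lower at 96 h and 2 at 48 h. The 5 peritubular markers summed to 490 to 1124 CPM at 96 h, 567 to 868 CPM at 48 h and 353 to 391 CPM in vehicle, with 3 called higher at 96 h and 2 at 48 h.

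The 5 macrophage markers summed to 96.8 to 191 CPM at 96 h, 74.5 to 116 CPM at 48 h and 50.8 to 107 CPM in vehicle, with 2 called higher at 96 h and 0 at 48 h (1 at an unadjusted edgeR p under 0.05). The 9 measured cell cycle genes summed to 1019 to 1200 CPM at 96 h, 408 to 598 CPM at 48 h and 187 to 328 CPM in vehicle, with 9 called higher at 96 h and 4 at 48 h. The shares called higher among all loci were 10.6% and 8.53%. At an unadjusted edgeR p under 0.05, 4082 of 26813 loci were higher at 48 h.

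The size of the rise depended on the scaling. Under upper-quartile scaling the median of all loci moved by -0.15 at 96 h and -0.13 at 48 h, and without scaling by -0.14 and -0.08. The mitoribosomal medians moved with it: under upper-quartile scaling they were 0.13 (MRPL) and 0.10 (MRPS) at 96 h, where 34 of 43 and 15 of 25 genes had a positive value. Under it, 3 MRPS genes were called higher at 96 h and 5 at 48 h. Relative to the median of all loci, the MRPL and MRPS medians under TMM were 0.29 and 0.26 at 96 h and 0.51 and 0.50 at 48 h. A factor per library moves all loci together, so upper-quartile and no scaling leave these differences nearly as they are by construction. With an offset for exonic length, which is not uniform over loci, they were 0.19 and 0.23 at 96 h and 0.45 and 0.40 at 48 h.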

How the data were processed

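Total RNA of the right testis of 10 macaques was made into stranded libraries, per the labels' protocols. Per the submitters' processing notes, reads went through tools that include HTSeq (0.6.1p1), Cufflinks (2.2.1), TopHat2 (2.1.1) run with Bowtie2 (2.2.8), and cutadapt (1.9.1), on the genome build rheMac8; edgeR is named too. How each was set is not given in the sources used here. The deposited table gives, for each locus, whole-number counts made by the authors, with loci assembled from reads and annotation, together with CPM, log2 fold changes, p-values and exon positions of the transcript models. Only the counts, names and positions were used, and all tests were made anew. Coordinates and exon counts come from the deposited models.

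The test was the quasi-likelihood F test of edgeR 4.0.16 under R 4.3.3 (robust glmQLFit and glmQLFTest after TMM) in 1 fit of 3 group means over 10 libraries, with Benjamini-Hochberg adjustment over 26813 loci at 0.05. The estimated biological coefficient of variation was 0.259, and 0 loci fell to the low-count filter. A floor of 3 counts was 0.137 CPM in the shallowest library, which covers counting error only. Replicates differed beyond sampling noise (chi-square per degree of freedom 15.8 to 49.6). The SE was taken from the F statistic. DESeq2 1.42.0, limma 3.58.1 and Python 3.11.15 with pandas 2.3.3 and matplotlib 3.10.9 were also used.

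The members and lists were chosen with earlier results of these data known, and no test over a list was made. Values in every animal are given for the 4 called genes with the smallest p and the 2 highest and 2 lowest fold changes per subunit and comparison with vehicle. The same holds for the 3 highest and 3 lowest levels per length, for called members against the majority and for 9 fixed genes (MRPS12, MRPS18A, MRPS18B, MRPS18C, MRPS30, MRPS36, MRPL11, MRPL12 and MRPL58). From other lists up to 3 called genes per comparison were named, or 2 where none was called. Promoter and protein sequences were not used here. Annotated copies exist for 11 members, whose reads may be divided.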

Additional observations from a re-analysis of the deposited data

Results flagged for a closer look

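MRPL14, a large subunit protein with a bacterial counterpart, had 13.67 CPM in TP16 and 14.7 CPM in each other 96 h animal. TP16 was flagged because the other values nearly coincided. The gap itself was small, and it was not set against counting error. The 48 h animals had 14.2 to 19.7 CPM and the vehicle animals 8.62 to 13.7 CPM. MRPL36, a small protein with a bacterial counterpart in the large subunit, had 15.05 CPM in TP16 and 19.3 to 19.6 CPM in the other 96 h animals, which put TP16 alone within the vehicle range of 13.6 to 15.6 CPM. Each of the 68 genes was examined in the group of 4 animals, and chance flags about 1 in 20 such groups. Both fall to TP16, the animal with the smallest mitoribosomal sums at 96 h (1553 CPM for MRPL and 922 CPM for MRPS).

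At the chromosome 3 locus of MRPL24 the 2 gonadotropin groups differed, with a log2 fold change of 0.6627 at 96 h against 48 h (edgeR adjusted p = 0.0315). That call was lost without TP08, TP10, TP12, TP15 or TP17, and with age as a covariate or a block. The 2 groups also differed in age. The 6-exon locus of the same name gave -0.35 (edgeR adjusted p = 0.145).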

How the results depend on the processing

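Animals were not paired, because the labels give each animal its own number and no replicate number shared between groups. Age class, used as a block, joins TP07 with TP08, TP11 with TP12, and TP09 with TP10 and the 96 h animals. Under upper-quartile scaling 1 MRPL gene (MRPL24) was lower and 3 MRPS genes were higher at 96 h against vehicle, with medians of 0.13 and 0.10, and at 48 h 5 MRPS genes were higher, with medians of 0.32 (MRPL) and 0.30 (MRPS). Library totals without scaling, an alternative added after seeing the data, gave 1 MRPL gene lower, 3 MRPS higher and medians of 0.14 and 0.10 at 96 h, and 1 MRPL gene lower at 96 h against 48 h. At an adjusted p of 0.01, 6 MRPL and 3 MRPS genes were higher at 96 h, 11 and 5 at 48 h, and 0 at 96 h against 48 h. Age class as a block left 4 MRPS genes higher at 96 h, and its MRPS median at 96 h against 48 h was -0.10. Without both animals over 20 months, 5 MRPS genes were higher at 96 h, 8 MRPL and 4 MRPS at 48 h, and the MRPS median at 96 h against 48 h was -0.10. DESeq2 called 7 MRPL genes and 1 MRPS gene lower at 96 h against 48 h. The shares of all loci called under these alternatives are not given here.

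The single MRPL gene higher at 96 h against 48 h, MRPL24, became 0 with age as a covariate or a block, without both older animals, with loci of 1 symbol summed, with the exonic length offset and with its 6-exon locus. That locus, also added after seeing the data, reversed MRPL24 to 0.68 at 48 h against vehicle, which left 0 MRPL genes lower, and to -0.35 at 96 h against 48 h. With each animal left out in turn, 10 to 14 MRPL and 3 to 8 MRPS genes were higher at 96 h, 11 to 25 MRPL and 5 to 14 MRPS genes at 48 h, and 0 to 1 MRPL genes at 96 h against 48 h. These counts too stand without the share of all loci called in the same fit. The MRPL medians lay between 0.24 and 0.30 at 96 h, 0.40 and 0.52 at 48 h, and -0.21 and -0.10 at 96 h against 48 h, and the MRPS medians between 0.15 and 0.28, 0.39 and 0.47, and -0.25 and -0.10. The causes were not tested. Of the 38 genes called higher at 48 h, 11 kept that call in all 25 alternatives, and of the 20 at 96 h, 9 did. MRPL54 had the lowest mean count of the 68 genes, 135.3.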
